A study of Homo sapiens with 2 samples.

Results

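The 10 genes described here encode core parts of the NOTCH pathway: the receptors NOTCH1, NOTCH2 and NOTCH3, the ligands JAG1, JAG2 and DLL1, the nuclear partners RBPJ and MAML1, and the effectors HES1 and HEY1. They were chosen by name from 20037 protein-coding genes, and every called region of lysine lactylation inside each gene or within 20 kb of it was taken. The members and the wider gene lists were chosen with earlier results of these data known. The regions come from CUT&Tag on CAL27, an established oral squamous cell carcinoma line, with an antibody that recognises lactylated lysine on any protein and directs a transposase to cut the DNA beside it. A single library was made from cells with no treatment and a single library from cells kept in 10 mM lactate for 24 hours, and both carried the same antibody and no modified gene. No difference between the libraries therefore has a replicate check. Intervals below are 95% intervals, and none covers variation between replicates. Those of pileups and their ratios cover counting error only.

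The untreated-labelled library held 15696147 tags and 43680 regions, and the lactate-labelled library 15120031 tags and 50352 regions. The header of each deposited list names the other sample as its input, while its name line carries the label's own name. All 49750 and 58929 peak summits carry the other sample's name. The samples are therefore called by their labels, and every direction would turn if the lists were exchanged. A library made without antibody was not analysed here, so part of the signal may be cutting of open chromatin. Peak lists hold no expression values, and the cell type could be checked only by regions within 1 kb of gene starts. Of 10 squamous markers 5 and 6 carried one, near the 43.6% and 49.5% of all protein-coding genes, and KRT14, TP63, DSG3 and ITGB4 carried none in either library. Markers of other cell types did so in 1 and 2 of 6 for fibroblasts, 2 and 0 of 5 for endothelium, 3 and 4 of 6 for blood and 1 and 2 of 4 for neurons. These lists therefore say nothing about the cell type beyond the background.

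NOTCH signalling passes between touching cells. A ligand on one cell pulls on a receptor on its neighbour, the receptor is cut first by ADAM proteases and then by gamma-secretase, and its freed intracellular part moves to the nucleus. There it joins the DNA-binding protein RBPJ and a Mastermind coactivator such as MAML1 and switches on genes such as HES1 and HEY1, which encode basic helix-loop-helix repressors. In squamous epithelium NOTCH1 promotes differentiation and acts as a tumour suppressor, and it is often mutated in oral squamous carcinoma.

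The sequences before the starts of HES1 and RBPJ are shown first because regions of both libraries covered them and they hold letters that match the binding sites of the pathway's own factors. Each sequence is the 250 bases before the annotated start, 5′ to 3′ in the direction of transcription, from RefSeq for GRCh38.p14. Capitals mark TGGGAA, the core of the RBPJ site, and CACGCG, a site type of the HES and HEY repressors, each on either strand. No CACGTG, another site type of those repressors, was found before any start of the members, and no marked motif overlapped another.
HES1, chr3:194135898-194136147, plus strand: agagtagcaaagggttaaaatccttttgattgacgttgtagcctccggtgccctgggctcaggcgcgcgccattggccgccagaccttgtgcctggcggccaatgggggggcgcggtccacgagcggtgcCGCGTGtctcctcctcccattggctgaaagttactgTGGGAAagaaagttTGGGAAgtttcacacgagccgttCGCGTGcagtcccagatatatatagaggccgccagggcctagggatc
RBPJ, chr4:26319496-26319745, plus strand: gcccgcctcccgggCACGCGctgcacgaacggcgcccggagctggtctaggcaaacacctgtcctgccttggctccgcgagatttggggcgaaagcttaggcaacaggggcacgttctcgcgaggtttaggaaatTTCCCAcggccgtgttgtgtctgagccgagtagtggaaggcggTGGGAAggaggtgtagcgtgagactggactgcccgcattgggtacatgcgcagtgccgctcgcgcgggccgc
Before HES1, TGGGAA began 84 and 70 bases before the start, both in the direction of transcription, and CACGCG lay on the other strand from 120 and 47 bases before it. Before this start of RBPJ, TGGGAA began 72 bases before the start, its complement 115 bases before it, and CACGCG 236 bases before it. Of all 35116 such windows in the table, 20.8% held TGGGAA, 9.72% CACGCG and 6.34% CACGTG on either strand. Of the 12 windows of the members, 2 held TGGGAA and 4 held CACGCG. The latter include the window before the RBPJ start at 26321228, which had no region in either library and held CACGCG 56 bases before the start. A match of letters is a description and not a bound site.

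The starts of JAG1 and MAML1 also lay under regions of both libraries, and that of NOTCH2 under a region of the lactate-labelled library alone. The regions covered all 250 printed bases of JAG1 and MAML1, but only 40 of those of NOTCH2. None of the 3 windows held a marked motif, so they are printed without capitals.
JAG1, chr20:10674000-10674249, minus strand: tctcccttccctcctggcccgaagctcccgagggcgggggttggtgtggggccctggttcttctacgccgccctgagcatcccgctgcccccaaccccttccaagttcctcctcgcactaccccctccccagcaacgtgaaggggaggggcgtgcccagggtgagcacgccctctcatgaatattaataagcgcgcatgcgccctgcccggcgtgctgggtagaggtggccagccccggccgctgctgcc
MAML1, chr5:179732572-179732821, plus strand: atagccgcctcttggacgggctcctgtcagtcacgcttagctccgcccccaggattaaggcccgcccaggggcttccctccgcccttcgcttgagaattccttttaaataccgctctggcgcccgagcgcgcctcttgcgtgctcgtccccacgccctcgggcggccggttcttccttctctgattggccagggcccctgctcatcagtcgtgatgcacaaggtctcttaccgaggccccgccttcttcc
NOTCH2, chr1:120069663-120069912, minus strand: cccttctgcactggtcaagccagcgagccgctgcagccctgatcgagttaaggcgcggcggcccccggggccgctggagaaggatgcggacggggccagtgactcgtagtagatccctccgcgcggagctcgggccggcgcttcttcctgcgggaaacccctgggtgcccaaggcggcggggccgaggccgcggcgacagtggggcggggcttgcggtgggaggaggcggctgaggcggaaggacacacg
The start of JAG2 carried no region in either library and is shown for contrast. Its GC content of 81.6% was the highest among the 12 windows of the members, and it held CACGCG from 236 bases before the start.
JAG2, chr14:105168777-105169026, minus strand: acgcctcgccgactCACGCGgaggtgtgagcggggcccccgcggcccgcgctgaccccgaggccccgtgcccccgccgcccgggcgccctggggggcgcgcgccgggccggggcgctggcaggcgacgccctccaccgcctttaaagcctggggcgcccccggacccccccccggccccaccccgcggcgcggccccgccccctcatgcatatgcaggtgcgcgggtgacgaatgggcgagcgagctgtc

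Regions lay at 9 of the 10 genes in the untreated-labelled library and at all 10 in the lactate-labelled library, where 81% and 83.9% of all protein-coding genes had a region inside or within 20 kb. JAG2 was the gene without a region in the untreated-labelled library. The genes and their flanks held 23 regions in the untreated-labelled library, 14 of them touching a gene and 9 in the flanks, and 36 in the lactate-labelled library, 19 and 17. Over the 1105 kb of these loci that was 2.08 and 3.26 regions per 100 kb, against 2.31 and 2.75 over the loci of all protein-coding genes with the same flanks. The median number of regions per gene was 2 and 3.5 for the members, and 2 in each library for all protein-coding genes. The receptors held 8 and 15 regions, the ligands 4 and 9, RBPJ and MAML1 together 7 and 7, and the effectors 4 and 5.

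The lactate-labelled library had more regions at 8 of the 10 genes, the untreated-labelled library at RBPJ, and HEY1 had equal numbers. Over all protein-coding genes 41.2% had more regions in the lactate-labelled library and 18.6% more in the untreated-labelled library. The receptors and ligands each had more regions in the lactate-labelled library, as the plot of regions per gene shows. RBPJ had 5 regions in the untreated-labelled and 3 in the lactate-labelled library, and MAML1 had 2 and 4. Regions were counted as shared where a region from each library had 1 bp or more in common. In the untreated-labelled library 20 of 23 regions were shared (87.0%, exact Clopper-Pearson interval 66.4 to 97.2), against 71.2% of all its regions. In the lactate-labelled library 20 of 36 were shared (55.6%, interval 38.1 to 72.1), against 61.2% of all. Both intervals contain the share over all regions of the same library. They treat regions as independent draws, although several lie at the same gene, so they are descriptions only. The regions in 1 library alone numbered 3 (13.0%) in the untreated-labelled library and 16 (44.4%) in the lactate-labelled library, where 28.8% and 38.8% of all regions had no overlap in the other.

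**Figure D1:**
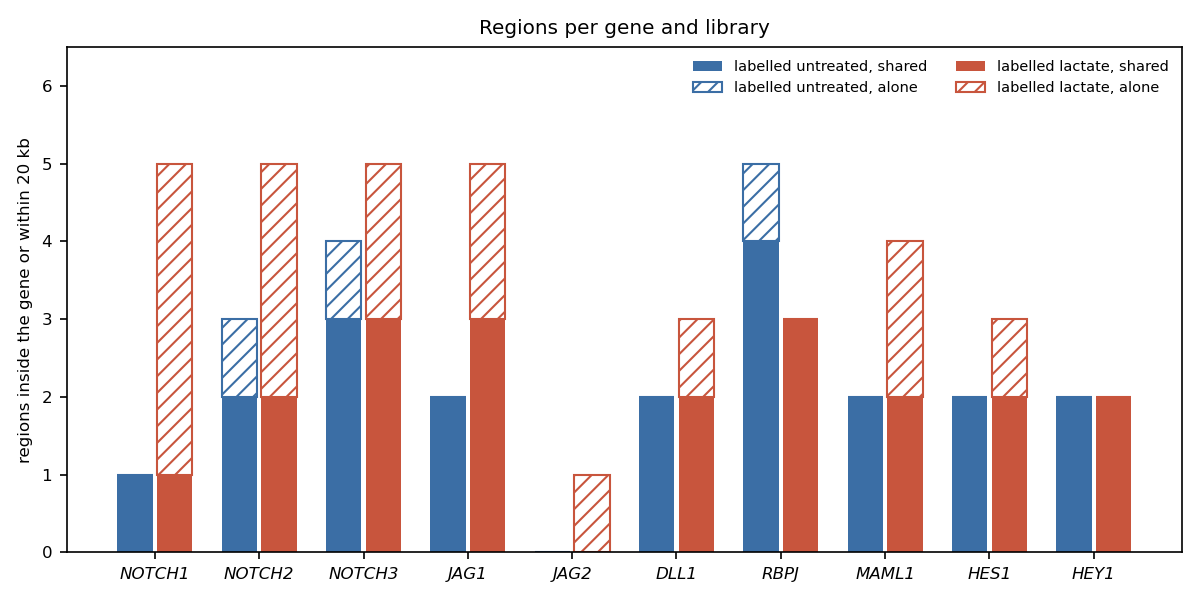
Number of regions inside each gene or within 20 kb, by library, with filled bars for regions that overlap one of the other library and hatched bars for regions in 1 library alone. The 3 receptors together have 8 regions in the untreated-labelled library and 15 in the lactate-labelled library, and JAG2 has 0 and 1.

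By fold enrichment, the members' regions lay somewhat below all regions of the same library. A pileup counts tags in a 200 bp window. The authors' fold enrichment of a region is the pileup over the local background, taken at the summit where that fold is highest. Its median was 4.47 in each library for the members, against 4.63 and 4.87 over all regions, and it ranged from 2.75 to 7.14 in the untreated-labelled library and from 2.42 to 7.76 in the lactate-labelled library. A fold enrichment of at least 5 was reached by 5 of 23 and 13 of 36 regions (21.7% and 36.1%), where 39.6% and 47.3% of all regions reached it. Of the 16 regions in the lactate-labelled library alone, 12 lay below that library's median fold, as did 72.3% of all its regions without a partner. Their range was 2.75 to 6.57, and the highest was inside JAG1. Region lengths ran from 200 to 759 bp and from 200 to 778 bp.

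**Figure D2:**
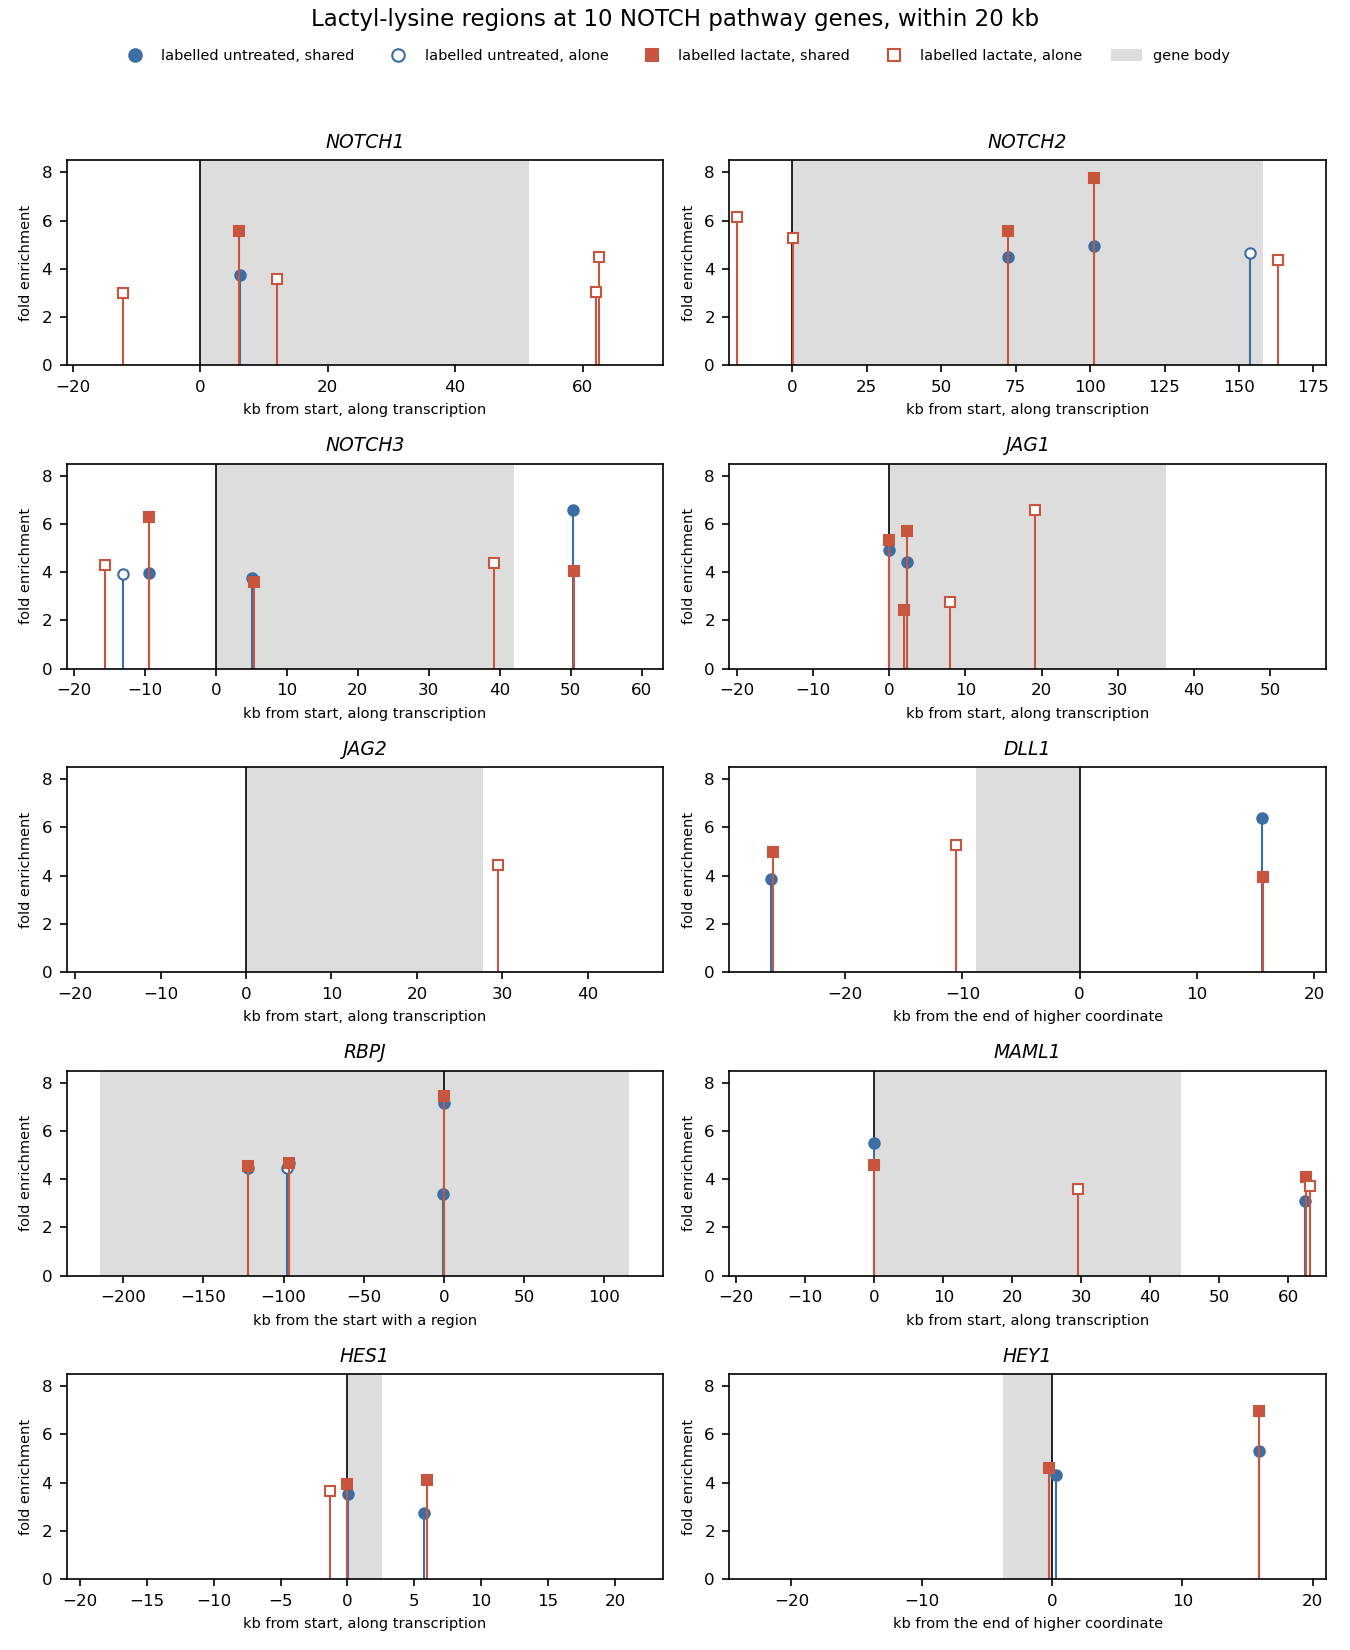
Summit position (x axis, kb from the start along transcription, or from the end of higher coordinate for DLL1 and HEY1) and fold enrichment (y axis) of every region at the 10 genes, with circles for the untreated-labelled and squares for the lactate-labelled library, filled where the region is shared and open where it is alone. The 4 open squares at NOTCH1 and the lone square beyond the far end of JAG2 have no partner in the other library, and at RBPJ the highest values of both libraries stand at the same start.

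At the receptors, no region of either library lay within 1 kb of the start of NOTCH1 or NOTCH3, and NOTCH2 carried one in the lactate-labelled library alone. All 3 receptors carried at least 1 shared region inside the gene. NOTCH1, on chromosome 9 from 136494433 to 136546048, is the receptor with the best described role in squamous differentiation. Its shared region lay 6.25 kb downstream of the start, from 136539694 to 136539898 in the untreated-labelled library (pileup 18, fold enrichment 3.75) and from 136539726 to 136540084 in the lactate-labelled library (pileup 28, fold 5.58), with an overlap of 173 bp. Per 1000000 tags these pileups were 1.15 and 1.85, a ratio of lactate-labelled to untreated-labelled of 1.61 (interval 0.862 to 3.10), so the values overlap within counting error.

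The other 4 regions of NOTCH1 were in the lactate-labelled library alone. Inside the gene, 12.1 kb downstream of the start, a region from 136533841 to 136534062 had a pileup of 21 and a fold of 3.57. Upstream, 12.1 kb beyond the gene, a region from 136558144 to 136558343 had a pileup of 12 and a fold of 3.0. The remaining pair lay beyond the far end, inside the neighbouring gene SEC16A, which encodes a scaffold of endoplasmic reticulum exit sites and ends at 136484740. Both regions also overlapped C9orf163, which begins at 136483495, the first of them only in part. These were at 136483292 to 136483556 (pileup 27, fold 4.49) and 136483721 to 136484043 (pileup 19, fold 3.04), about 10.9 and 10.4 kb from NOTCH1. The local background at the NOTCH1 regions, recomputed from pileup and fold, was 3.34 to 5.58 tags in the lactate-labelled library and 4.06 in the untreated-labelled library, above the medians of 2.20 and 2.12 over all regions.

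NOTCH2, on chromosome 1 from 119911553 to 120069662, encodes a receptor that is widely expressed in epithelia. A region from 120069326 to 120069702 lay over its start in the lactate-labelled library alone (pileup 11, fold 5.26), with the summit 231 bp downstream of the start. Genes with a start region in the lactate-labelled library alone made up 9.41% of all protein-coding genes. The reads at this end are uncertain, because the NOTCH2NL genes are near-identical copies of the first part of NOTCH2. Both libraries had a region within 1 kb of an end of NOTCH2NLR, NOTCH2NLA and NOTCH2NLC, and neither had one at NOTCH2NLB.

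Deeper in NOTCH2 lay 2 shared regions. The region 101 kb into the gene, from 119968086 to 119968524 and from 119968076 to 119968350, had pileups of 10 and 17 and folds of 4.95 and 7.76 in the untreated-labelled and lactate-labelled library, and the latter was the highest fold among the members in that library. Its pileup ratio was 1.76 (interval 0.763 to 4.31). The region 72.5 kb into the gene, from 119997087 to 119997364 and from 119996980 to 119997256, had pileups of 8 and 10 and folds of 4.47 and 5.57. The overlaps were 265 and 170 bp. These pileups are low and their intervals wide, so no difference between the libraries could be detected at this depth.

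The other regions of NOTCH2 were each in a single library. In the untreated-labelled library a region near the far end of the gene, from 119915964 to 119916174, had a pileup of 10 and a fold of 4.66. In the lactate-labelled library a region 18.4 kb upstream of the gene, from 120088075 to 120088285, had a pileup of 13 and a fold of 6.14, and one 4.72 kb beyond its far end, from 119906525 to 119906837, a pileup of 8 and a fold of 4.37. At no place in NOTCH2 did the untreated-labelled library have the higher value of a shared pair.

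NOTCH3, on chromosome 19 from 15159038 to 15200995, encodes a receptor best known from the smooth muscle of arteries. It had 3 shared regions, 1 inside the gene and 1 beyond each end. Inside the gene, 5.14 kb downstream of the start, the region spanned 15195573 to 15195959 and 15195521 to 15195959, with pileups of 18 and 19 and folds of 3.77 and 3.61, nearly level in both libraries (ratio 1.10, interval 0.544 to 2.21). Upstream, the region 9.44 kb from the start spanned 15210336 to 15210621 and 15210091 to 15210772, with pileups of 13 and 21 and folds of 3.95 and 6.29. Beyond the far end, the region from 15150496 to 15150764 and from 15150486 to 15150737 went the other way, with pileups of 18 and 9 and folds of 6.60 and 4.03, and its ratio of 0.519 (interval 0.205 to 1.22) was the lowest among the members.

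The overlaps at NOTCH3 were 387, 286 and 242 bp. In the untreated-labelled library alone a region 12.9 kb upstream, from 15213903 to 15214102, had a pileup of 13 and a fold of 3.91. In the lactate-labelled library alone one 15.4 kb upstream, from 15216424 to 15216628, had 14 and 4.31, and one near the far end of the gene, from 15161640 to 15161846, had 10 and 4.40. Most of the regions at NOTCH3 were thus in its flanks, 3 of 4 and 3 of 5.

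The ligands differed among themselves. JAG1 carried regions at its start and just inside the gene in both libraries, while JAG2 and DLL1 carried none inside the gene in either. JAG1, on chromosome 20 from 10637684 to 10673999, encodes the Serrate-type ligand Jagged1. Its start region spanned 10673934 to 10674474 in the untreated-labelled library and 10673934 to 10674463 in the lactate-labelled library, with an overlap of 530 bp, summits 54 and 55 bp upstream of the start, pileups of 23 and 32 and folds of 4.92 and 5.36. The summits thus lay 1 bp apart, and the ratio of pileup per 1000000 tags was 1.44 (interval 0.819 to 2.58).

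About 2 kb downstream of the JAG1 start, a region from 10671481 to 10672126 in the untreated-labelled library (pileup 23, fold 4.41) overlapped 2 regions of the lactate-labelled library. The nearer to its summit, from 10671501 to 10671755, had a pileup of 40 and a fold of 5.73, and the other, from 10671996 to 10672310, a pileup of 16 and a fold of 2.42, the lowest fold among the members. The overlaps were 255 and 131 bp. The pileup of 40 was the highest among all regions of the 10 genes. Per 1000000 tags it was 2.65 against 1.47, a ratio of 1.81 (interval 1.06 to 3.16), and this was the only one of the members' 19 shared pairs whose interval did not contain 1. Over all 30242 shared pairs 5.18% had an interval above 1, and the interval at JAG1 contains the median ratio of all pairs, 1.18.

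Further into JAG1, 2 regions were in the lactate-labelled library alone. The region 19.2 kb downstream of the start, from 10654661 to 10655001, had a pileup of 17 and a fold of 6.57, the highest among the members' regions without a partner. The region 7.93 kb downstream, from 10665880 to 10666143, had a pileup of 11 and a fold of 2.75.

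JAG2, on chromosome 14 from 105140995 to 105168776, encodes the related ligand Jagged2. Its single region lay 1.58 kb beyond the far end of the gene in the lactate-labelled library, from 105139211 to 105139410, with a pileup of 11 and a fold of 4.44. DLL1, on chromosome 6 from 170282206 to 170291078, encodes a Delta-type ligand, and its strand is not in the tables used here. A region in the lactate-labelled library alone lay 1.58 kb below its lower end, from 170280387 to 170280623, with a pileup of 17 and a fold of 5.26. For both ligands the region nearest to the gene was thus in the lactate-labelled library alone and outside the gene.

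DLL1 also had 2 shared regions in its flanks, and they went in opposite directions. The region 17.1 kb below the gene, from 170264651 to 170265107 and from 170264716 to 170265046, had pileups of 11 and 16 and folds of 3.85 and 5.00, with a ratio of 1.51 (interval 0.658 to 3.60). The region above the gene, inside the neighbouring gene FAM120B, from 170306522 to 170306770 and from 170306414 to 170306902, had pileups of 18 and 11 and folds of 6.38 and 3.95, with a ratio of 0.634 (interval 0.271 to 1.42). The overlaps were 331 and 249 bp. Both intervals contain 1.

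The nuclear partners RBPJ and MAML1 carried start regions in both libraries. RBPJ, on chromosome 4 from 26105449 to 26435131, encodes the factor that binds DNA for the activated receptor, and RefSeq lists 5 starts for it. Only the start at 26319746, whose sequence is printed above, had a region within 250 bases before it. That region spanned 26319438 to 26319761 in the untreated-labelled library (pileup 20, fold 7.14) and 26319077 to 26319854 in the lactate-labelled library (pileup 29, fold 7.46), with summits 160 and 120 bp before the start. The fold was the highest among the members in the untreated-labelled library, at the 91.0th percentile of all its regions, and the second highest in the other, at the 89.2th.

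The longer region of the lactate-labelled library at this start also overlapped, by 138 bp, a second region of the untreated-labelled library from 26319001 to 26319214 (pileup 9, fold 3.40), so this stretch counts once in one list and as 2 regions in the other. The overlap with the first piece was 324 bp, and the ratio of the paired pileups per 1000000 tags was 1.51 (interval 0.823 to 2.81). All capitals in the printed RBPJ sequence lie within the regions of both libraries, which cover all 250 of its bases.

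The remaining regions of RBPJ lay between the first listed start and the start with a region. They also lay inside annotated long noncoding RNA genes, LOC105374545 for the first given here and LOC124900690 for the others. The region from 26197428 to 26197627 and from 26197332 to 26197706 had a pileup of 8 in each library and folds of 4.47 and 4.56. The region from 26223213 to 26223485 and from 26223286 to 26223494 had 11 in each library and a fold of 4.65 in each. Overlaps were 200 bp at both. These were the members' most level pairs, with ratios of 1.04 and 1.04. A neighbouring region from 26221778 to 26221996 was in the untreated-labelled library alone (pileup 11, fold 4.48).

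MAML1, on chromosome 5 from 179732822 to 179777283, encodes a coactivator that docks on the complex of RBPJ and the cleaved receptor. Its start region spanned 179732442 to 179732978 and 179732439 to 179732905, with an overlap of 464 bp, pileups of 17 and 14 and folds of 5.49 and 4.57. MAML1 was the only one of the 5 members with a paired region at the start or end whose ratio was below 1 (0.855, interval 0.390 to 1.84), and that interval contains 1. In the lactate-labelled library alone a region 29.5 kb into the gene, from 179762269 to 179762608, had a pileup of 11 and a fold of 3.59.

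Beyond the far end of MAML1, the regions lay inside LTC4S, which encodes leukotriene C4 synthase. The shared region from 179795225 to 179795473 and from 179795278 to 179795511 overlapped by 196 bp and had pileups of 21 and 32 and folds of 3.09 and 4.10. A region from 179795916 to 179796467 was in the lactate-labelled library alone, with a pileup of 30 and a fold of 3.73. These 2 sites had high pileups and low folds, with local backgrounds of 6.12 to 7.30 tags.

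The effectors HES1 and HEY1 carried regions at or beside the gene in both libraries, and all 4 regions of the untreated-labelled library at these genes were shared. HES1, on chromosome 3 from 194136148 to 194138732, encodes a repressor that is switched on directly by NOTCH. Its start region spanned 194135939 to 194136277 in the untreated-labelled library and 194135894 to 194136288 in the lactate-labelled library, with an overlap of 339 bp, pileups of 29 and 36 and folds of 3.55 and 3.94. The summits were 18 bp downstream and 21 bp upstream of the start. The pileup of 29 was the highest among the members in the untreated-labelled library, while its fold stood at the 15.8th percentile of that library.

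The local background, by which the fold divides, was 7.46 and 8.38 tags at the HES1 start, against medians of 2.12 and 2.20 over all regions. The regions covered 209 and 250 of the 250 bases printed above, with all capitals inside both. The pileup ratio at the start was 1.29 (interval 0.768 to 2.18). Downstream of HES1 a shared region from 194141733 to 194142267 and from 194141517 to 194142267 had pileups of 19 and 26 and folds of 2.75 and 4.09, with an overlap of 535 bp and a ratio of 1.42 (interval 0.756 to 2.72). Upstream, a region in the lactate-labelled library alone, from 194134749 to 194135149, had its summit 1.30 kb before the start, a pileup of 32 and a fold of 3.67.

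HEY1, on chromosome 8 from 79764010 to 79767767, encodes a repressor of the HES-related family, and its strand is not in the tables used here. At its upper end a region of the untreated-labelled library from 79767932 to 79768131 (pileup 14, fold 4.31) lay wholly within one of the lactate-labelled library from 79767405 to 79768175 (pileup 17, fold 4.59). The summits were 531 bp apart, the widest gap among the shared pairs, so the 2 values are not from the same point. About 15.8 kb above the gene, inside the long noncoding RNA genes LINC01607 and LOC101927040, a region from 79783549 to 79784307 and from 79783564 to 79784298 overlapped by 735 bp, with pileups of 14 and 21 and folds of 5.32 and 6.96. Its ratio was 1.56 (interval 0.755 to 3.31).

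The comparison of shared regions asked whether overlapping regions gathered more tags in a library. Summits lay within 100 bp of each other in 14 of the pairs. They were 106 bp apart at NOTCH1, 123 bp on the FAM120B side of DLL1, 208 bp downstream of HES1, 240 bp inside NOTCH3 and 531 bp at the end of HEY1. The values of these pairs are not from the same point. Of the 19 shared pairs, in which each region was the other's largest overlap, 16 had the higher pileup per 1000000 tags in the lactate-labelled library. The exceptions were the far flank of NOTCH3, the FAM120B side of DLL1 and the start of MAML1. At least 1.5-fold higher in the lactate-labelled library were 8 pairs, where 20.5% of all 30242 shared pairs were, and at least 1.5-fold lower were 2, where 2.99% of all were. The 8 were at NOTCH1, NOTCH2, NOTCH3, JAG1, DLL1, RBPJ, MAML1 and HEY1, 1 pair each. Those of NOTCH1, NOTCH2, JAG1 and RBPJ lay inside the gene, and those of NOTCH3, DLL1, MAML1 and HEY1 in the flanks. The flank pair of MAML1 lay inside LTC4S, and that of HEY1 inside LINC01607 and LOC101927040. Among the 19 pairs, only the JAG1 pair downstream of its start had an interval that did not contain 1. The median ratio was 1.42 (log2 0.51), against 1.18 (log2 0.23) over all shared pairs, of which 71.2% were above 1. Relative to that shift of all pairs, the members' median was 0.27 on the log2 scale. The interval of the members' log2 median ran from 0.054 to 0.66 and contains the 0.23 of all shared pairs. The members' median was therefore not separated from that of all shared pairs.

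**Figure D3:**
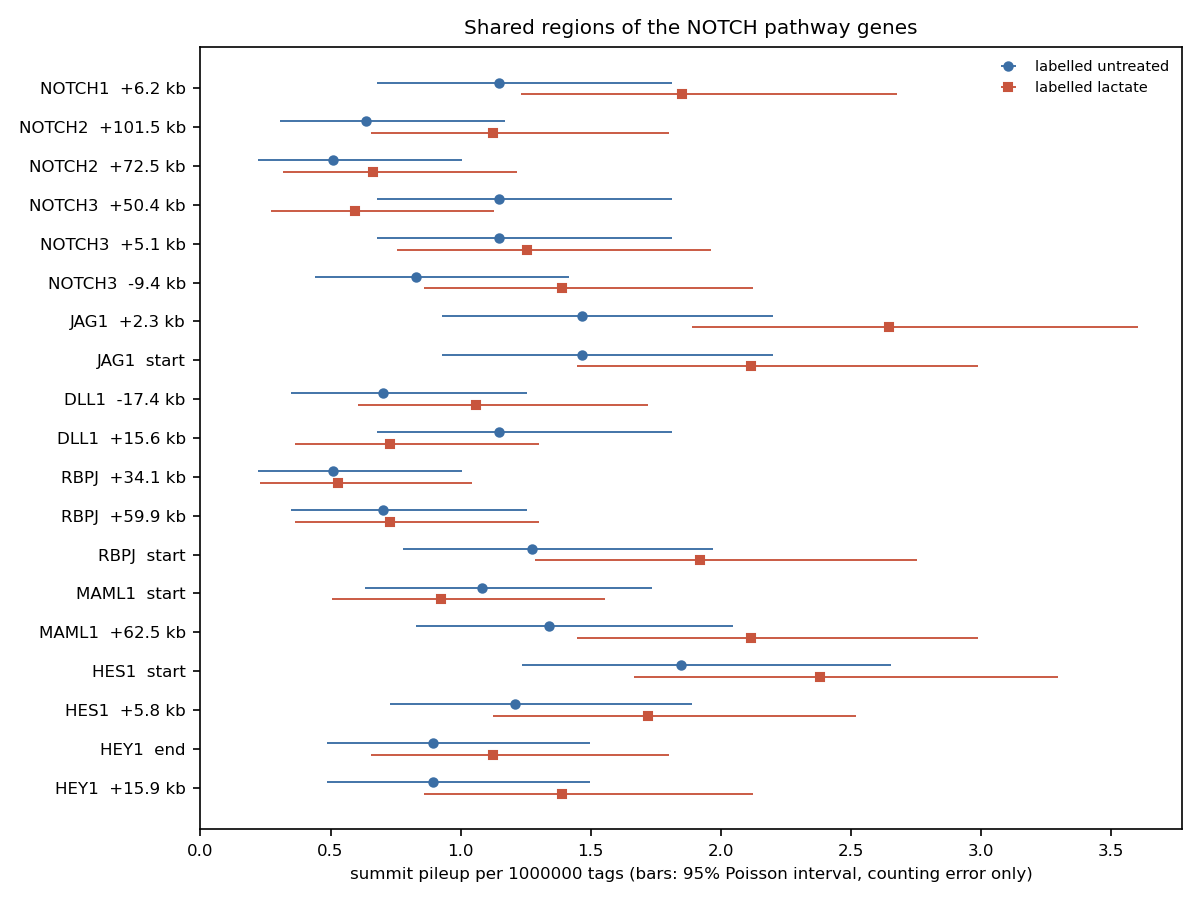
Summit pileup per 1000000 tags (x axis) of the 19 shared regions, with bars for 95% Poisson intervals and labels for the distance of the untreated-labelled summit from the nearest start (from the nearest end for DLL1 and HEY1). The intervals of the libraries overlap in each of the 19 pairs, and the square of the lactate-labelled library lies to the right in 16.

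The comparison of starts asked which genes carried the mark at the place where transcription begins. JAG1, RBPJ, MAML1, HES1 and HEY1 carried a region within 1 kb in both libraries, with HEY1 and DLL1 judged at either end. That is 5 of 10 genes in the untreated-labelled library and, with NOTCH2, 6 of 10 in the lactate-labelled library, where 43.6% and 49.5% of all protein-coding genes did. Genes with a start region in both libraries were 40.1% of all. The members' counts are near these shares.

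Of the 8 members whose promoters are in the table, the GC content of the windows before the starts is given beside the presence of a region. The windows under regions of both libraries had 59.2% (HES1), 64.0% (MAML1), 65.2% (RBPJ) and 68.4% (JAG1). That of NOTCH2, with 40 of its bases under a region of the lactate-labelled library alone, had 72.8%. Those of NOTCH1, NOTCH3 and JAG2, without a region, had 76.0%, 78.0% and 81.6%. The other 4 windows of RBPJ, also without a region, had 33.6%, 34.4%, 69.6% and 72.8%, the last as high as that of NOTCH2. Over all windows, the share with a region was 42.7% and 48.1% at a GC content of 60 to 70%, 46.1% and 53.0% at 70 to 75%, and 31.4% and 41.4% at 75% and over. In this highest class the lactate-labelled library alone had a region in 13.0% of windows and the untreated-labelled library alone in 3.01%. The part of GC content in the presence of a region at the members was not tested.

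**Figure D4:**
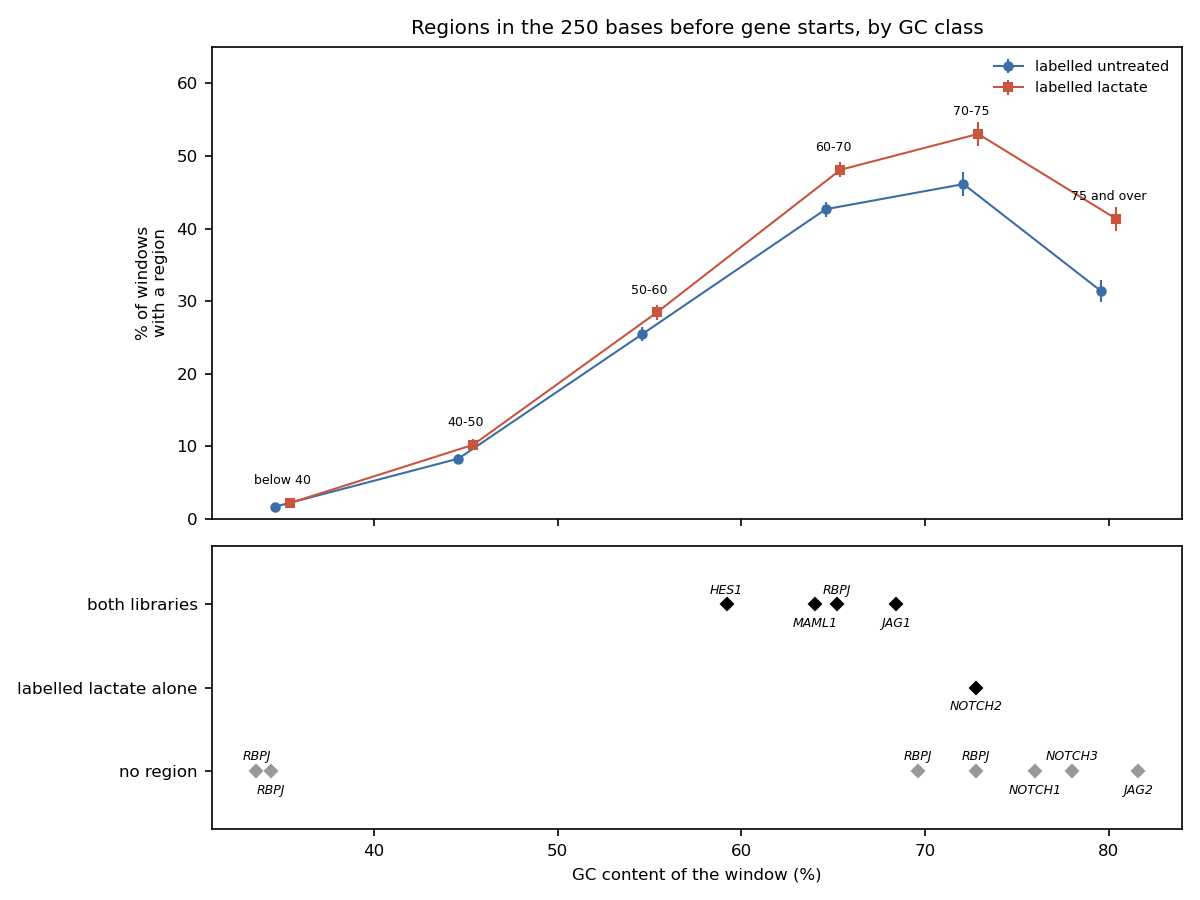
Upper panel: share of all windows of 250 bases before gene starts with a region (y axis, with 95% exact intervals) by class of GC content (x axis, each point drawn inside its class), for each library. Lower panel: the 12 windows of the members by GC content and by whether a region of both libraries, the lactate-labelled library alone or none lay on them, where those of NOTCH1, NOTCH3 and JAG2 stand at 76.0% and over with no region.

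Around the 10 genes, the wider pathway was counted over 40 further genes, grouped by role. A region within 1 kb of the start was present at 19 in the untreated-labelled library (47.5%) and 23 in the lactate-labelled library (57.5%), 18 of them in both. Over all protein-coding genes the shares were 43.6% and 49.5%, so the list's counts lie near the background, and the counts below, of 4 to 8 genes a group, are descriptions only. Of the genes that cut the receptor 7 of 8 were marked in each library, including ADAM10 with folds of 6.13 and 7.34 and the gamma-secretase genes NCSTN with 5.56 and 6.20 and PSEN2 with 7.93 and 4.75. Of the inhibitors and turnover genes 6 of 8 were marked in each, all in both libraries. Among them were NUMB, which encodes an antagonist of the receptor, with folds of 7.08 and 9.60, and FBXW7, which encodes the ubiquitin ligase subunit that marks the active receptor for destruction, with 6.34 and 8.03.

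Of the other receptors and ligands 0 and 1 of 4 were marked, and of the genes of receptor glycosylation and ligand endocytosis 3 and 3 of 8. MIB1, the ubiquitin ligase that drives ligand endocytosis, had folds of 6.82 and 7.89. Of the nuclear complex 2 and 2 of 7 were marked, including the coactivator gene EP300 with 7.50 and 6.04. Among the other targets the counts were 1 and 4 of 5: HEY2 was marked in both libraries, and HES4 (fold 3.99), HEYL (5.00) and NRARP (2.93) in the lactate-labelled library alone.

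In all, 5 of the 40 genes had a start region in the lactate-labelled library alone, where 9.41% of all genes did, and 1 in the untreated-labelled library alone, where 3.52% did. Besides the 3 targets, the 5 were the endothelial ligand gene DLL4 (3.30) and the gamma-secretase gene APH1B (4.09), the latter judged at either end of the gene. The gene in the untreated-labelled library alone was APH1A (3.69), which encodes the related gamma-secretase subunit. The folds of these 6 genes were at most 5.00, below those of the strongest genes marked in both libraries.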

How the data were processed

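CUT&Tag for lactylated lysine gave 1 library each of CAL27 cells without treatment and after 24 hours in 10 mM lactate. The submitters' processing notes name fastp 0.20.0, BWA, MACS2 2.1.0 and hg38. Per the file headers, each library's peaks were called alone, without a control, with a q limit of 0.05 and tags shifted by -100 bp and extended to 200 bp, which centres a tag's window on the cut site. In the authors' deposited lists the pileup is a signal, counted in tags without scaling for depth. The deposited fold enrichment is the ratio of pileup to local background, each raised by 1. The background was recomputed from these. The sources used here do not mention spike-in scaling.

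Summits of the same start and end were joined into regions, represented by the summit of highest fold. Genes and starts came from RefSeq tables for GRCh38.p14, which is hg38. Starts were given for 15842 of 20037 protein-coding genes, and for the other 4195, DLL1 and HEY1 among them, either end was used. Exons and introns were not analysed here. No test was run, as each group has 1 library. Shares have exact Clopper-Pearson, pileups exact Poisson and ratios exact conditional binomial intervals of 95%. Tags are not independent molecules, and regions at the same gene are not independent draws. Depth was 15696147 and 15120031 tags. All 10 members are named, and of the wider list the genes marked in 1 library alone and the 3 of highest fold in each, with ADAM10, NCSTN and HEY2 added after their values were seen. In the wider list 1 gene is not reported here and is left out of every count. The members and lists were chosen with earlier results of these data known. The overlap, start and ratio code was tested on simulated data. The alternatives were windows of 5 and 50 kb, stricter folds, equal lists, other overlap rules, other start windows and other scalings. Scripts ran in Python 3.11.15 with SciPy 1.17.1, numpy 2.4.6, pandas 2.3.3 and, for figures, matplotlib 3.10.9.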

Additional observations from a re-analysis of the deposited data

How the results depend on the processing

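Of 32 alternatives over the counts, shares and the median ratio at the members and the wider list, 21 kept the value within its limits (1.5 times for counts, the 95% interval otherwise) and 11 moved it. The median log2 ratio stayed between 0.27 and 0.59 under all its alternatives. With a window of 50 kb the members had 40 regions in the untreated-labelled library and 58 in the lactate-labelled library. At a fold enrichment of at least 5 they had 5 and 13 regions, 2 and 3 members had a start region, 100% of the 5 regions were shared in the untreated-labelled library, and 11 genes of the wider list were marked there. With equal lists of the 21840 strongest regions they had 9 and 12. With summits within 100 bp as the rule for sharing, 60.9% and 38.9% of the members' regions were shared. At these settings the shares over all regions and all genes are not given, so the values describe the members only. Over all regions of the untreated-labelled library the median fold was 4.97 for shared regions and 4.04 for those alone. The cause of these moves was not tested, beyond the wider window and the stricter fold taking in more and fewer regions. No paired analysis was possible because each group has 1 library and the result comes from no test. For the same reason no replicate could be left out. Pileups of 8 to 40 tags limit what the ratios can show.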

Other observations

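Several of the members' regions held more than 1 summit. The region above HEY1, inside LINC01607, had 2 summits in the untreated-labelled library and 3 in the lactate-labelled library, the most among the members. The start regions of JAG1 and MAML1 had 2 summits in both libraries, while that of HES1 had 1 in both.

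The nearest regions left out by the limit of 20 kb lay beyond the far end of HES1, 20.2 kb away in the untreated-labelled library (pileup 15, fold 3.96) and 20.3 kb away in the lactate-labelled library (pileup 13, fold 3.52). The farthest regions taken in were 18.6 kb from MAML1 and 18.4 kb from NOTCH2.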
